A study of Mus musculus with 35 samples.

Results

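The proteasome subunit genes described here are all genes whose array symbol begins with Psma, Psmb, Psmc, Psmd, Psme, Psmf or Psmg followed by a digit, each read by its brightest probe set among those annotated to 1 symbol. This gave 50 genes of 19938 on the day 15 arrays and 49 of 18194 on the day 25 arrays, with 49 genes on both. All 50 passed the filter on low values at day 15 and 48 passed at day 25. The gene that did not pass was Psmb11, the thymus form of a catalytic core subunit, which lay between 3.67 and 4.14 on the log2 scale of the day 25 arrays. Psme2, a subunit of the interferon-inducible activator, was read at day 15 only. The prefix also takes Psme3ip1 and Psmc3ip, which are not subunits: Psmc3ip encodes a cofactor of meiotic recombination. Immune forms (Psmb8, Psmb9, Psmb10) and germ cell forms (Psma8, Psme4) were kept apart from the constitutive genes, of which 42 were tested at day 15 and 41 at day 25.

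Total RNA of whole testis from male C57BL6 mice was hybridised to Affymetrix arrays, with 1 array type and 18 arrays at postnatal day 15 and another type and 17 arrays at day 25. The groups were Akt1 homozygous (Akt1-/-) mice exposed to propylthiouracil (PTU), unexposed Akt1 homozygous mice, PTU-exposed Akt1 heterozygous (Akt1+/-) mice, unexposed Akt1 heterozygous mice, PTU-exposed wild type (Akt1+/+) mice and unexposed wild type mice, with 3 arrays each. The exposed homozygous group of day 25 has 2 arrays, because the authors left out another as of low quality. PTU blocks thyroid hormone synthesis, and Akt1 encodes a kinase of growth factor signalling. The labels used here give neither the dose and timing of PTU nor the construction of the Akt1 allele, and the design text counts 1 mouse per array. The 2 array types do not share a scale, so each day is compared only within itself.

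The proteasome degrades proteins tagged with ubiquitin. Its 20S core is a barrel of alpha rings, which gate entry, around beta rings, which carry the proteolytic sites. The 19S regulatory particle on its ends binds ubiquitin chains, removes them and unfolds the substrate with a ring of ATPases. Spermatocytes replace the alpha subunit Psma7 with its paralogue Psma8, and Psme4 encodes an activator that caps the core and is abundant in spermatids. Interferon gamma replaces the catalytic beta subunits with the immune forms Psmb8, Psmb9 and Psmb10.

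Promoters of genes that moved in these data are shown because many proteasome genes are known to share control by Nfe2l1 through sites of the form TGACNNNGC, and many housekeeping promoters hold the CCAAT box. The windows below are the 250 bases before the RefSeq gene start on GRCm38.p6, read 5′ to 3′ on the gene's strand, with matches to TGACNNNGC or CCAAT on either strand in capitals. Psma7, Psmb3 and Psmc6 were higher and Psmf1 was lower in exposed than in unexposed homozygous testis at day 25, as described further on.
Psma7, chr2:180042465-180042714, minus strand: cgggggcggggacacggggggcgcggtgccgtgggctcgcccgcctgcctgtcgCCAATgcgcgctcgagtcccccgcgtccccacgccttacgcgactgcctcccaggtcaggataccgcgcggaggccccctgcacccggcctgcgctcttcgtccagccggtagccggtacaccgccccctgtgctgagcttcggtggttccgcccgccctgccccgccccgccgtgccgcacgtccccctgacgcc
Psmb3, chr11:97703184-97703433, plus strand: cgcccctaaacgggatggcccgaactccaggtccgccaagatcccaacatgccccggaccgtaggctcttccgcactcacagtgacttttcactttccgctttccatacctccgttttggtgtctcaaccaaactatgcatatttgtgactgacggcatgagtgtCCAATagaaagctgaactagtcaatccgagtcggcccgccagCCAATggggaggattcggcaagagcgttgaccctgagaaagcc
Psmc6, chr14:45329574-45329823, plus strand: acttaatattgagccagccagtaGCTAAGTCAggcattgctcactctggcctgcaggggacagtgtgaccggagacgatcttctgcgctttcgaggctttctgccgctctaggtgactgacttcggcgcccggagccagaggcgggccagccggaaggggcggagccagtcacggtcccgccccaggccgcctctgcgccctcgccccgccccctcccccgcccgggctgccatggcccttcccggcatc
Psmf1, chr2:151741311-151741560, minus strand: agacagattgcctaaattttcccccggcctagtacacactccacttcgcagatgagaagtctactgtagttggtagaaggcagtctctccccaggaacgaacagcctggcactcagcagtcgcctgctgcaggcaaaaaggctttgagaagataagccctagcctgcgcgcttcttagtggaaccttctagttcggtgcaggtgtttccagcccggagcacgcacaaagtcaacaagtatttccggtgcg
Psma7 holds 1 CCAAT, Psmb3 holds 2, Psmc6 holds 1 TGACNNNGC on the opposite strand, and the Psmf1 window holds neither. Of the members, 42 matched the promoter table, with 46 promoters. TGACNNNGC stood in 5 of the 46 (10.9%) and in 10.2% of all 32851 promoters of the table, and CCAAT in 16 of the 46 (34.8%) and in 33.8% of all.

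Values are log2 intensities as deposited. A difference is given on the log2 scale ± its standard error from limma, and a gene is said to be higher or lower only where its p, adjusted over all genes tested on that day (16710 at day 15, 16305 at day 25), was under 0.05. Shares of all genes called belong to this main fit unless another fit is named beside them. Where arrays were left out or a block was added, no such share is given, so those member counts have no background. The transcript of Akt1 lay between 9.01 and 9.74 in exposed and 9.04 and 9.40 in unexposed homozygous testis at day 15, against 9.92 to 10.09 in exposed and 9.34 to 9.71 in unexposed wild type testis. At day 25 it lay between 9.28 and 9.53 in homozygous and 9.38 and 9.55 in wild type testis. None of the 4 differences between homozygous and wild type passed, the smallest adjusted p being 0.101. Pearson correlations between arrays of 1 group ran from 0.986 to 0.9969 at day 15 and from 0.9801 to 0.9981 at day 25.

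At day 15 the constitutive proteasome genes were nearly level across the 6 groups. A moderated F test over the groups called 4 of the 50 members (8%), 2 of them constitutive, where 26.7% of all genes tested were called. The span from the lowest to the highest array was between 0.25 and 1.11 log2 units for the 42 constitutive genes, with a median of 0.45. The narrowest belonged to Psmc5, an ATPase of the 19S base. The widest belonged to Psmd6, a lid subunit of the 19S particle. The mean of the 14 constitutive core genes, set against unexposed wild type, was 0.04, 0.05 and 0.19 in the exposed homozygous arrays, 0.10, 0.00 and 0.03 in the unexposed homozygous arrays, and 0.06, 0.07 and 0.03 in the exposed wild type arrays. The germ cell form Psma8 spanned 3.17 log2 units over the same 18 arrays.

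**Figure D1:**
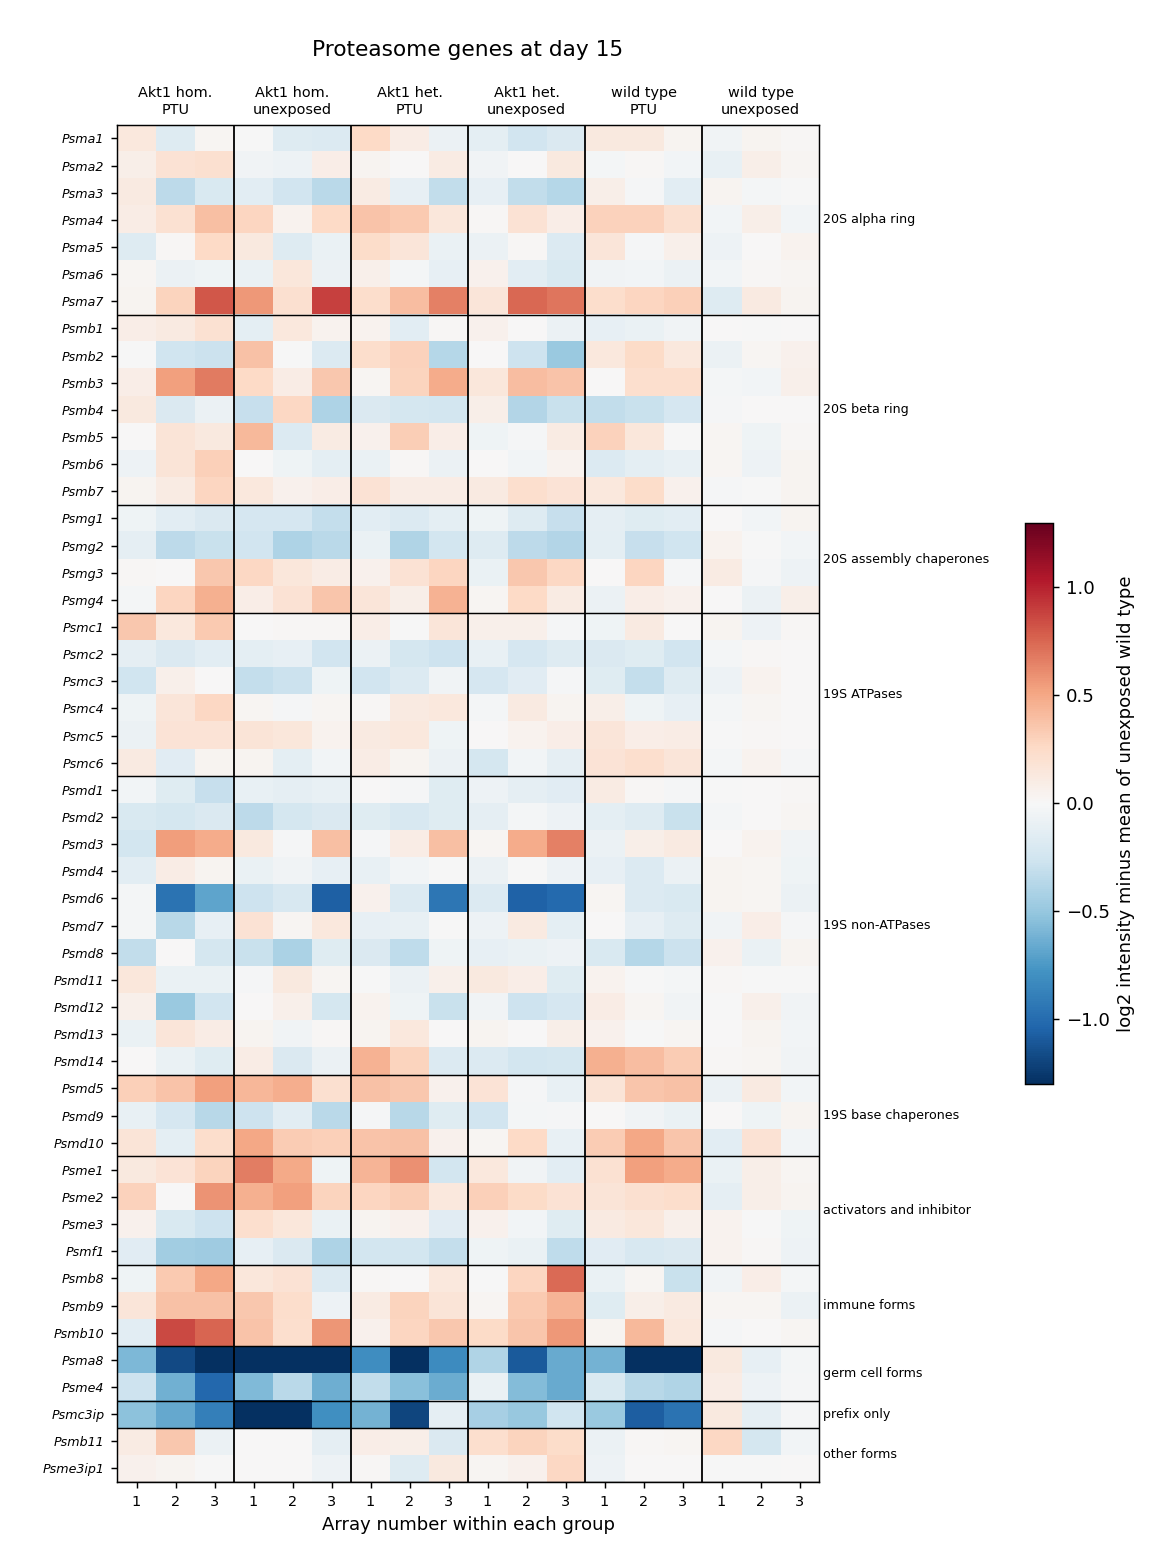
Log2 intensity of each of the 50 proteasome genes (rows, by class) in each of the 18 day 15 arrays (columns, by group), as the difference from the mean of unexposed wild type. Red is higher and blue lower, colours stop at 1.3 log2 units, and the darkest blue lies in the rows of Psma8, Psmc3ip and Psmd6 and the darkest red in those of Psma7 and Psmb10.

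Psma8, the alpha subunit of spermatocytes, was lower in unexposed homozygous than in unexposed wild type testis at day 15. It read 8.65, 9.13 and 9.77 in unexposed homozygous testis, against 11.82, 11.58 and 11.66 in unexposed wild type testis. The groups did not overlap and differed by -2.51 ± 0.38 (0.176-fold, adjusted p = 0.000123). In exposed wild type testis it read 11.08, 10.32 and 10.15, below all 3 unexposed wild type arrays (-1.17 ± 0.38, adjusted p = 0.0481). In exposed homozygous testis it read 11.11, 10.52 and 9.57, and this group overlapped the unexposed homozygous arrays (1.22 ± 0.38, adjusted p = 0.0769). The PTU difference in homozygous testis was higher than the PTU difference in wild type testis by 2.39 ± 0.54 (adjusted p = 0.00735). The exposed heterozygous arrays at 10.88, 9.60 and 10.87 and the unexposed ones at 11.30, 10.60 and 11.03 overlapped. These comparisons share arrays: the 3 unexposed wild type arrays, the highest of the 18, serve both the PTU difference in wild type and the genotype difference.

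Psmc3ip, the recombination cofactor that has only the prefix, was lower in the same 2 comparisons as Psma8. It read 7.83, 7.87 and 8.88 in unexposed homozygous testis, against 9.81, 9.56 and 9.66 in unexposed wild type testis, with no overlap (-1.49 ± 0.26, adjusted p = 0.000388). In exposed wild type testis it read 9.20, 8.61 and 8.72, also below every unexposed wild type array (-0.84 ± 0.26, adjusted p = 0.0374). Its PTU difference was higher in homozygous than in wild type testis by 1.63 ± 0.37 (adjusted p = 0.00686). Psme4, the activator abundant in spermatids, read 10.35, 10.57 and 10.29 in unexposed homozygous testis, against 11.02, 10.85 and 10.90 in unexposed wild type testis, again with no overlap (-0.52 ± 0.16, adjusted p = 0.0258). The mean of 10 spermatid genes lay between 5.98 and 6.10 in the former group and between 5.99 and 6.11 in the latter. These means lay close to the 25th percentile of all day 15 values, 5.56, so a lower level would hardly show in them. In exposed wild type testis Psme4 read 10.72, 10.56 and 10.53, a difference from unexposed that did not pass (-0.32 ± 0.16).

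The constitutive counterpart of Psma8 ran the other way in 1 comparison. Psma7 read 10.33, 9.98 and 10.66 in unexposed homozygous testis, against 9.60, 9.89 and 9.81 in unexposed wild type testis, and was higher by 0.56 ± 0.20 (adjusted p = 0.0434). In exposed wild type testis it read 10, 10.05 and 10.08, all above the unexposed wild type arrays, but the difference of 0.27 ± 0.20 did not pass. Across the 18 arrays, which share groups and any difference in cell makeup, Psma7 correlated with Psma8 at r = -0.534, Psme4 at 0.645 and Psmc3ip at 0.931. The 5 genes outside the family with the pattern closest to Psma8 were Clgn at 0.995, Ldhc at 0.994, and 1700006J14Rik, Poteg and Fam216a at 0.992 each. Clgn encodes a chaperone of the germ cell endoplasmic reticulum and Ldhc the lactate dehydrogenase of germ cells.

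**Figure D2:**
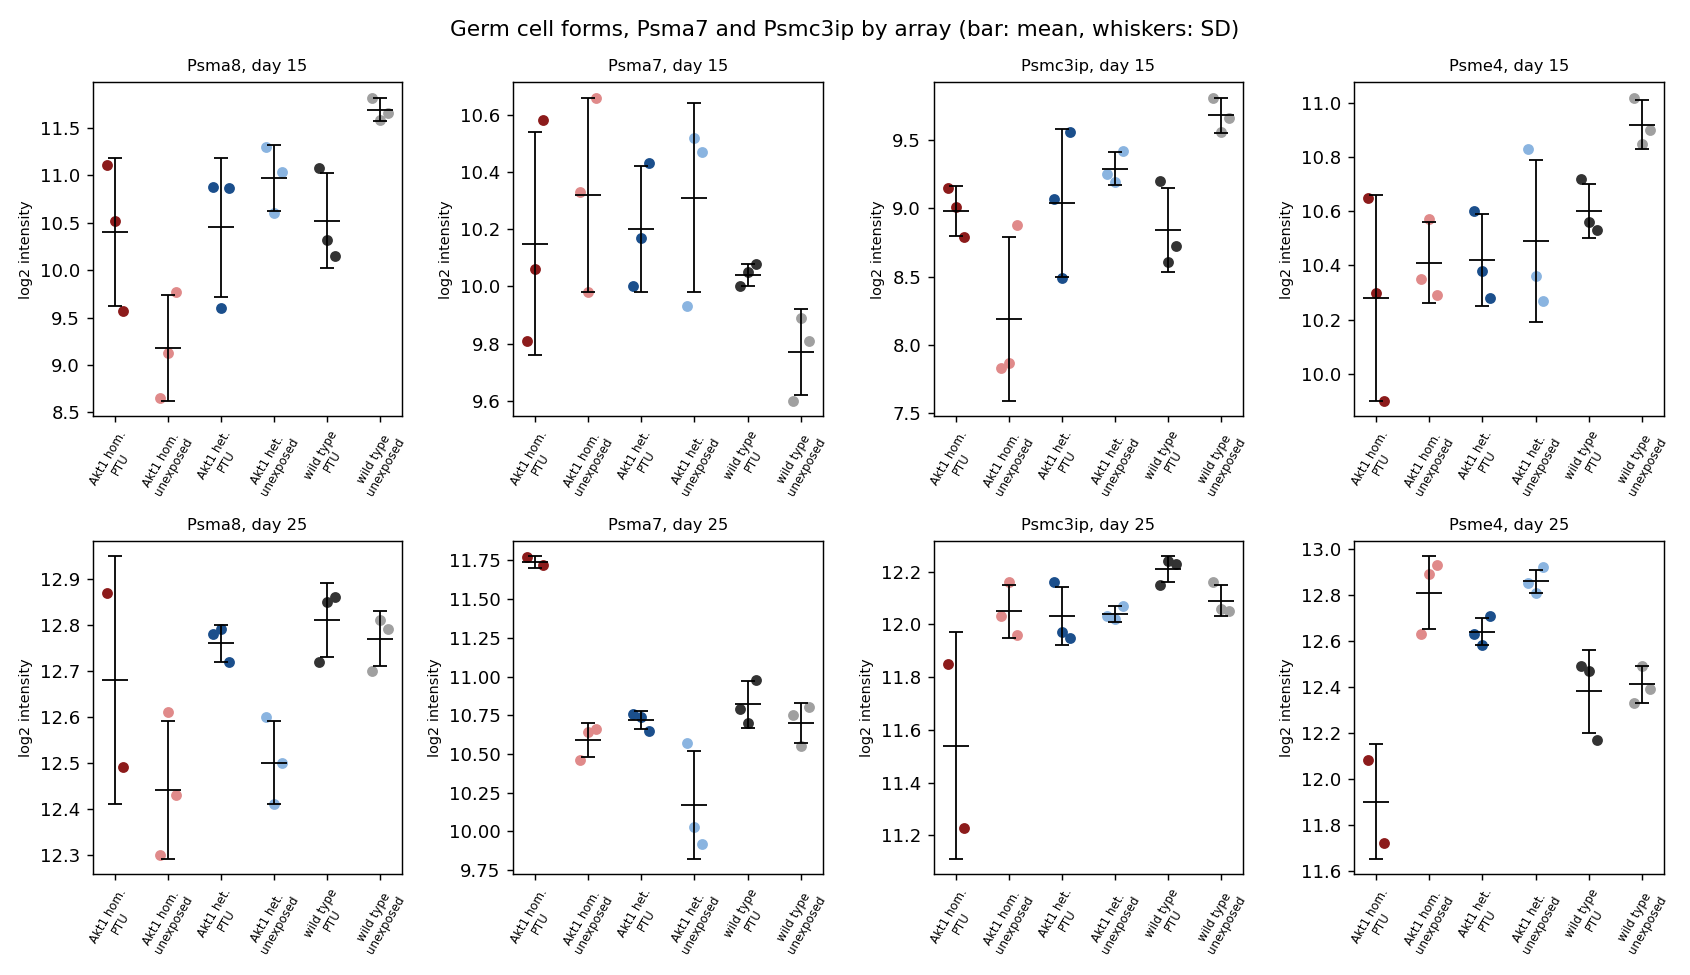
Log2 intensity of Psma8, Psma7, Psmc3ip and Psme4 in every array of the 6 groups, with day 15 above and day 25 below, the bar at the group mean and whiskers at 1 SD. At day 15 the unexposed wild type arrays are the highest for Psma8 and Psme4, and at day 25 the 2 exposed homozygous arrays are the highest for Psma7 and the lowest for Psme4.

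Pachytene spermatocyte genes moved beside the germ cell forms. Of the 13 genes of that list, 13 were lower in unexposed homozygous than in unexposed wild type testis at day 15 (median difference -2.95, against 0.08 for all genes tested), and 11 were lower in exposed than in unexposed wild type testis (median -2.26, against 0.03). The mean of the 13 lay between 6.67 and 7.58 in unexposed homozygous testis, between 7.79 and 8.98 in exposed wild type testis, and between 10.05 and 10.54 in unexposed wild type testis. Clgn and Ldhc stand on this list. In whole testis RNA, fewer cells of a type and less RNA per cell cannot be told apart. Macrophage genes were also lower in both comparisons, 5 of 12 and 9 of 12, and of 13 Sertoli genes 8 were higher and 1 lower in the first and 6 higher and 2 lower in the second. Among all genes tested, 14.6% were higher and 14.2% lower in the first comparison, and 6.53% higher and 8.75% lower in the second. The mean of the Sertoli genes lay between 10.20 and 10.25 in exposed and between 10.11 and 10.26 in unexposed wild type testis. The part of any of these cells in the proteasome values was not tested.

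Unexposed homozygous against unexposed wild type testis was the day 15 comparison with most members called. Of 50 members, 4 were higher and 7 lower, where 28.9% of all genes tested were called, 14.6% higher and 14.2% lower, so the share of members, with 11 called, lay below the background. The median member difference was -0.01, against 0.08 for all genes. Beside Psma7, the higher genes were Psmd5 (0.37 ± 0.11) and Psmd10 (0.38 ± 0.13), chaperones that assemble the 19S base, and Psme2 (0.42 ± 0.12), a subunit of the interferon-inducible activator. Beside the germ cell forms and Psmc3ip, the lower genes were Psmd2 (-0.26 ± 0.07), a scaffold of the 19S base, Psmd8 (-0.29 ± 0.10), a lid subunit, and Psmg1 (-0.25 ± 0.08) and Psmg2 (-0.33 ± 0.10), chaperones of the alpha ring. None of the beta ring genes, the 19S ATPases or the immune forms passed. When each array of the comparison was left out in turn, Psma8 and Psmc3ip stayed called each time and the other 9 each lost the call at least once. Without the first unexposed wild type array 3 members were called, without the third 4, and without the first or the second unexposed homozygous array 5 and 6. How many of all genes kept a call in those fits is not given here, so these drops cannot be read as particular to the members.

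Genes that act with or on the proteasome were read in the same comparison of unexposed homozygous with unexposed wild type testis. There 28.9% of all genes were called, 14.6% higher and 14.2% lower. Of 9 partner genes without the prefix 1 was lower, Uchl5 (-0.36, adjusted p = 0.00961), a deubiquitinase of the 19S particle. Of 5 regulators 3 were higher and 1 lower: Nfe2l2 (0.53), Mafk (0.30) and Nfe2l1 (0.27), transcription factors of stress and proteasome genes, were higher, and Ngly1 (-0.47), the glycanase that processes Nfe2l1, was lower. Of 8 ubiquitin and delivery genes 0 passed, with 2 at an unadjusted p under 0.05, as were 6661 of all 16710 genes. Of 8 MHC class I and interferon gamma genes 3 were higher and 0 lower, with Irf1 at 0.55, while the immune forms stayed without a call: over the 18 arrays Psmb8 lay between 5.26 and 6.29, Psmb9 between 7.59 and 8.19 and Psmb10 between 7.47 and 8.47.

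PTU in wild type testis at day 15 called 2 members higher and 2 lower, where 15.3% of all genes were called, 6.53% higher and 8.75% lower (median member difference 0.01, all genes 0.03). Psmd14, the deubiquitinase of the 19S lid, read 11.29, 11.23 and 11.16 in exposed wild type testis, against 10.85, 10.86 and 10.78 in unexposed wild type testis (0.40 ± 0.12, adjusted p = 0.0369). The groups did not overlap. Psmd10 read 9.72, 9.89 and 9.75 in exposed wild type testis, against 9.25, 9.58 and 9.35 in unexposed wild type testis (0.39 ± 0.13, adjusted p = 0.0453), also without overlap. Psma8 and Psmc3ip were the lower pair. All 4 lost the call when single arrays were left out, with 0 members called without the first or the third unexposed array or without the second or the third exposed array, 1 without the second unexposed array, and 2 without the first exposed array. Under quantile normalization the split was 3 higher and 0 lower, with 2766 of all 16710 genes called, against 2553 in the main fit.

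In the other day 15 comparisons few or no members passed. PTU in homozygous testis called 0 of 50, where 4.96% of all genes were called, 0.586% higher and 4.37% lower. An unadjusted p under 0.05 was reached by 7 members and by 3771 of all 16710 genes. Without the third unexposed or the first exposed array 2 members were called. PTU in heterozygous testis called 0 (all genes 0.569%, 0.192% higher and 0.377% lower), with 3 at that unadjusted level (2264 of all genes). Without the third exposed array 1 was called. Exposed homozygous against exposed wild type testis called 0 (all genes 0%), with 12 of 50 members and 4266 of all 16710 genes at that level. With sample number as a block it called 1, Psmd14 (-0.48, adjusted p = 0.0356). Without the first exposed homozygous array this comparison called 9 members, with the share of all genes called in that fit not given here. Unexposed heterozygous against unexposed wild type testis called 0 (all genes 3.95%, 0.718% higher and 3.23% lower), with 10 at that level (3700 of all genes). With sample number as a block it called 4: Psma7 (0.54) was higher and Psme4 (-0.44), Psmg2 (-0.30) and Psmd6 (-0.75) were lower. With the array division described further on as a block it called 0, and Psma7 stood at 0.22 (adjusted p = 0.46) and Psme4 at -0.20 (adjusted p = 0.48). Without the first unexposed heterozygous array it also called 4. Exposed heterozygous against exposed wild type testis called 0 (all genes 0%), with 0 at that level (887 of all genes). The PTU difference averaged over the genotypes called 1 (all genes 12%, 3.88% higher and 8.09% lower), Psmd14 (0.26 ± 0.07, adjusted p = 0.0254). That call was lost without the first or second exposed heterozygous, the second unexposed homozygous, the third unexposed wild type or the second exposed wild type array, and 4 members were called without the third exposed heterozygous and 5 without the first exposed homozygous array. The percentages in this paragraph belong to the main fit. For fits that left out an array or added a block, the share of all genes is not given, so those member counts have no background.

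The PTU difference differed between homozygous and wild type testis for 3 members at day 15, where 16.4% of all genes were called in that interaction, 8.23% higher and 8.13% lower. All 3 calls ended without the 3 arrays with Spink8 described further on. Psma8 and Psmc3ip had the higher PTU difference in homozygous testis, as given above. Psmd10 had the lower one (-0.68 ± 0.18, adjusted p = 0.016): it read 9.56, 9.26 and 9.62 in exposed and 9.89, 9.72 and 9.70 in unexposed homozygous testis. Without the first unexposed wild type array Psmd10 was no longer called (-0.61, adjusted p = 0.0538). Without the third unexposed homozygous array, or without the first exposed one, 7 members were called. The same test between heterozygous and wild type testis called 0 members (all genes 0.449%, 0.443% higher and 0.00598% lower), with 1 at an unadjusted p under 0.05 (1573 of all genes).

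Psmd6 divided the day 15 arrays in another way. Bright probe sets without a symbol, which the labels do not mention, divide the 18 arrays into 12 and 6, and all wild type arrays belong to the 12, while the second and the third unexposed heterozygous arrays belong to the 6. Psmd6 lay between 11.20 and 11.53 in the 12 and between 10.41 and 10.78 in the 6, with no overlap. With this division as a block, the difference between unexposed homozygous and wild type testis was -2.50 for Psma8, -1.62 for Psmc3ip, -0.40 for Psme4 and 0.40 for Psma7, and all 4 passed, while the PTU difference of Psma8 in wild type did not (-1.17, adjusted p = 0.0507). Within the 12 arrays the 2 unexposed homozygous arrays, at 8.65 and 9.13, still lay below all 3 unexposed wild type arrays for Psma8. Spink8, an epididymal gene, lay above 7 in 3 arrays, the second and the third unexposed wild type and the second exposed homozygous array. Without them 4 members were called between unexposed homozygous and wild type testis, 0 for PTU in wild type and 0 for the interaction of PTU with the homozygous genotype, with a lone unexposed wild type array assumed to vary like the other groups.

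At day 25 the F test over the 6 groups called 38 of the 48 members tested (79.2%), 34 of them among the 41 constitutive genes, where 72.4% of all genes were called, a share near that of the members. The span over arrays had a median of 0.82 log2 units for the constitutive genes, from 0.34 for Psmd4, a ubiquitin receptor of the 19S particle, to 2.18 for Psmf1, an inhibitor of the core. The mean of the 14 constitutive core genes stood 0.37 and 0.49 above unexposed wild type in the 2 exposed homozygous arrays. It stood at -0.23, -0.14 and -0.18 in the unexposed homozygous arrays, at -0.04, -0.16 and -0.10 in exposed and -0.21, -0.31 and -0.33 in unexposed heterozygous arrays, and at 0.03, 0.05 and 0.14 in exposed wild type arrays.

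**Figure D3:**
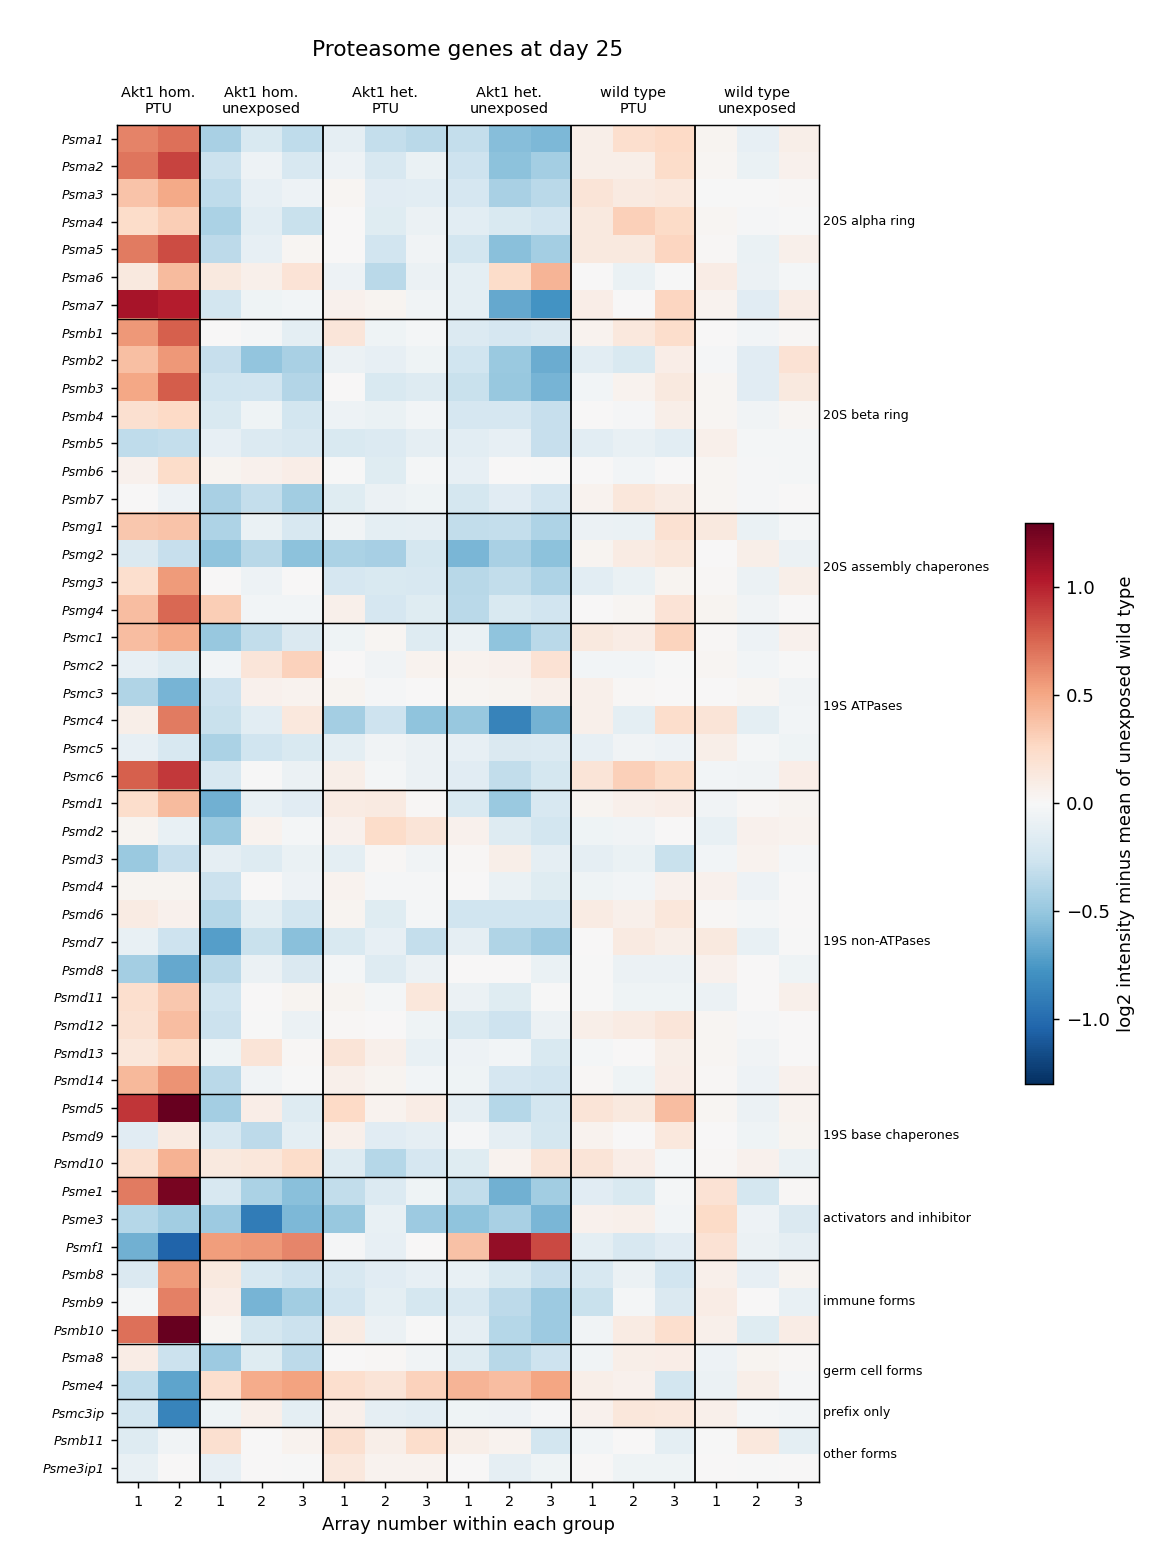
Log2 intensity of each of the 49 proteasome genes (rows, by class) in each of the 17 day 25 arrays (columns, by group), as the difference from the mean of unexposed wild type, with colours stopping at 1.3 log2 units. The 2 exposed homozygous arrays are red across most core genes and blue for Psmf1 and Psme4, and the unexposed homozygous and heterozygous arrays show the opposite colours for many of the same rows.

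PTU in homozygous testis at day 25 called 28 members higher and 7 lower of 48, where 71.2% of all genes were called, 38.4% higher and 32.8% lower. The median member difference was 0.36, against 0.02 for all genes. Exposed homozygous testis rested on 2 arrays. Between 27 and 35 members were called when single arrays were left out, and 24 of the 35 kept the call each time. The others were Psmb9, Psmc2, Psmc3ip, Psmc4, Psmd3, Psmd7, Psmd8, Psmd11, Psmg2, Psmg3 and Psmg4. With a fit of these 5 arrays alone, 19 members were higher and 2 lower. The share of all genes in that fit, and in those without an array, is not given here, so these counts have no background.

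Most genes of the 20S core were higher, where 38.4% of all genes were higher and 32.8% lower. Of the 7 alpha ring genes 6 were higher, with a median of 0.91, and of the 7 beta ring genes 5 were higher, with a median of 0.40. Psma7 read 11.77 and 11.72 in exposed homozygous testis, against 10.46, 10.64 and 10.66 in unexposed homozygous testis (1.16 ± 0.15, 2.23-fold, adjusted p = 1.01e-05). Psma1, another alpha subunit, read 11.92 and 12 in exposed homozygous testis, against 10.86, 11.08 and 10.95 in unexposed homozygous testis (1.00 ± 0.11, adjusted p = 1.67e-06). For both genes the 2 exposed homozygous arrays were the highest of the 17. Psma2 (0.98 ± 0.10) and Psma5 (0.91 ± 0.12) differed by nearly as much, Psma3 (0.60 ± 0.10) and Psma4 (0.56 ± 0.09) by less, and Psma6 (0.14 ± 0.14) did not pass. In the beta ring, Psmb3 read 11.50 and 11.79 in exposed homozygous testis, against 10.74, 10.75 and 10.62 in unexposed homozygous testis (0.94 ± 0.12, adjusted p = 6.56e-06). Psmb2 (0.89 ± 0.13) and Psmb1 (0.73 ± 0.09), which like Psmb3 carry no active site, were higher too, as was Psmb4 (0.40 ± 0.08). Of the 3 catalytic subunits, Psmb7, the trypsin-like site, was higher by 0.36 ± 0.08, and Psmb5 (-0.15 ± 0.08), the chymotrypsin-like site, and Psmb6 (0.09 ± 0.08), the caspase-like site, did not pass. All 4 chaperones of core assembly were higher, by 0.59 ± 0.11 for Psmg1, 0.49 ± 0.13 for Psmg4, 0.40 ± 0.10 for Psmg3 and 0.23 ± 0.09 for Psmg2. Psmg2, Psmg3 and Psmg4 lost the call without the second exposed homozygous array.

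Of the 17 genes of the 19S particle 9 were higher and 4 lower, with a median of 0.33, where 38.4% of all genes were higher and 32.8% lower. Among the ATPases, Psmc6 read 11.72 and 11.86 in exposed homozygous testis, against 10.73, 10.93 and 10.86 in unexposed homozygous testis (0.95 ± 0.09, adjusted p = 7.1e-07). Psmc3 read 13.05 and 12.84 in exposed homozygous testis, against 13.17, 13.50 and 13.49 in unexposed homozygous testis (-0.44 ± 0.10, adjusted p = 0.000943). Neither gene's groups overlapped, so ATPases of 1 ring moved in opposite directions. Psmc1 (0.77 ± 0.12) was higher, and so was Psmc4 (0.48 ± 0.18), which lost the call without the first or second unexposed array and stood at 0.18 without the second exposed array (adjusted p = 0.439). Among the other subunits Psmd14 (0.64 ± 0.11), the scaffold Psmd1 (0.61 ± 0.13), the lid subunit Psmd12 (0.42 ± 0.10) and Psmd6 (0.33 ± 0.08) were higher, while the ubiquitin receptor Psmd4 (0.16 ± 0.09) and the scaffold Psmd2 (0.12 ± 0.14) did not pass. Psmd3 (-0.26 ± 0.09) and Psmd8 (-0.35 ± 0.10) were lower, the last at adjusted p = 0.078 without the second exposed homozygous array. The base chaperone Psmd5 read 10.34 and 10.70 in exposed homozygous testis, against 8.97, 9.50 and 9.24 in unexposed homozygous testis (1.28 ± 0.15, adjusted p = 2.74e-06), while its fellow chaperones Psmd9 (0.21 ± 0.11) and Psmd10 (0.16 ± 0.11) did not pass.

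Activators, the inhibitor and the special forms differed from each other. Psme1, a subunit of the interferon-inducible activator, read 10.83 and 11.38 in exposed homozygous testis, against 9.94, 9.74 and 9.61 in unexposed homozygous testis (1.34 ± 0.16, adjusted p = 3.9e-06). Psmf1 read 10.31 and 9.89 in exposed homozygous testis, against 11.47, 11.49 and 11.56 in unexposed homozygous testis (-1.41 ± 0.17, 0.376-fold, adjusted p = 4.76e-06), a difference seen with its brightest probe set and with none of its 3 dimmer ones. Both genes stood clear of all other arrays in the exposed homozygous group. Psme3, the nuclear activator, did not pass (0.24 ± 0.15). Psme4, the spermatid activator, read 12.08 and 11.72 in exposed homozygous testis, against 12.63, 12.89 and 12.93 in unexposed homozygous testis (-0.92 ± 0.13, adjusted p = 1.38e-05). Psma8 read 12.87 and 12.49 in exposed homozygous testis, against 12.30, 12.61 and 12.43 in unexposed homozygous testis, with overlap and no call (0.23 ± 0.11, adjusted p = 0.0802). Under quantile normalization that difference was 0.34 and passed (adjusted p = 0.00905). Psmc3ip was lower (-0.51 ± 0.13), but not without the second exposed homozygous array (-0.20, adjusted p = 0.127).

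Of the immune forms, 2 of 3 were higher in exposed than in unexposed homozygous testis, where 71.2% of all genes were called. Psmb10, which takes the place of Psmb7, read 8.65 and 9.42 in exposed homozygous testis, against 7.96, 7.70 and 7.65 in unexposed homozygous testis (1.26 ± 0.18, adjusted p = 2.17e-05), with no overlap. Psmb9, which takes the place of Psmb6, read 7.07 and 7.76 in exposed homozygous testis, against 7.19, 6.5 and 6.65 in unexposed homozygous testis (0.63 ± 0.20, adjusted p = 0.00907). Its groups overlapped, and without the second exposed homozygous array the difference was 0.29 (adjusted p = 0.228). Psmb8, which takes the place of Psmb5, read 5.96 and 6.70 in exposed homozygous testis, against 6.28, 5.94 and 5.88 in unexposed homozygous testis, and did not pass (0.29 ± 0.17). Of 11 MHC class I and interferon gamma genes 7 were higher and 0 lower (median 0.68), where 38.4% of all genes were higher and 32.8% lower. Among the 7 were B2m (1.57), the MHC class I light chain, Gbp2 (1.43), an interferon-induced GTPase, and the transcription factor Irf1 (1.14). At day 15 no immune form passed in any of the 10 comparisons.

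**Figure D4:**
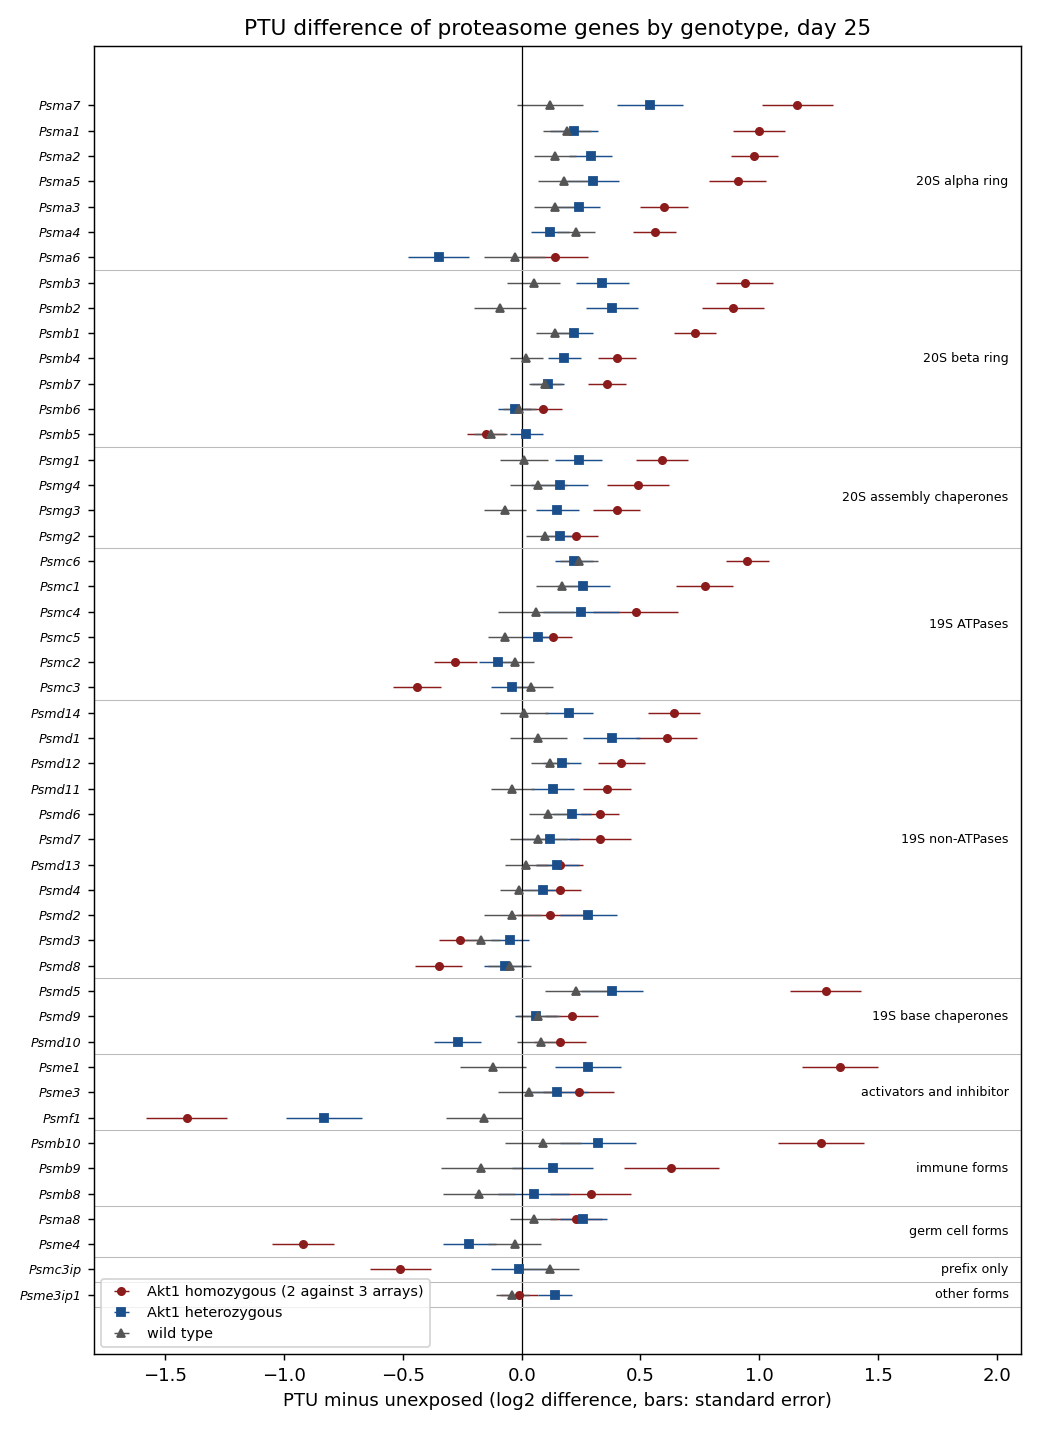
PTU difference (exposed minus unexposed, log2, with the standard error as bars) of the 48 tested proteasome genes at day 25, ordered by class and by the difference in homozygous testis, for homozygous, heterozygous and wild type mice. The homozygous points run from -1.41 for Psmf1 to 1.34 for Psme1, and the wild type points stay between -0.18 and 0.24.

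Genes that act with the proteasome but lack the prefix were read in the same comparison of exposed with unexposed homozygous testis, in which 71.2% of all genes were called. Of 9 partner genes tested, 6 were higher and 2 lower (median 0.55), including Usp14 (1.04), a deubiquitinase of the 19S particle, Txnl1 (1.20), a thioredoxin that binds the 19S particle, and Zfand5 (0.86), a ubiquitin-binding activator, all higher, and Akirin2 (-0.73), the nuclear import factor of proteasomes, lower. Of 5 regulators of proteasome genes, 4 were higher, with Nfe2l2 at 1.41, and 1 was lower, Ngly1 (-1.54), the glycanase that processes Nfe2l1. Of 8 ubiquitin and delivery genes, 3 were higher and 3 lower (median -0.01), with Uba6 (1.11), a ubiquitin-activating enzyme, and Ubqln2 (1.10), a shuttle, among the higher and Rad23b (-0.57), another shuttle, among the lower.

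Germ cell markers stood far apart in the same 2 arrays. All 12 spermatid genes were lower in exposed than in unexposed homozygous testis (median -5.98), their mean lying at 5.40 and 6.60, against 11.45 to 11.92. All 13 pachytene genes were lower (median -1.44). Meiotic genes were higher for 9 of 12 and lower for 2, spermatogonial genes higher for 7 of 8 and lower for 1, and Sertoli genes higher for 8 of 12 and lower for 2. Epididymis and fat genes were higher for 5 of 7 (median 4.17), their mean lying at 8.47 to 8.79, against 5.19 to 5.23, and macrophage genes were lower for 5 of 12 and higher for 1. Of 7 Leydig genes 2 were higher and 2 lower, their mean lying at 7.98 to 8.37, against 8.79 to 9.35, and of 5 lymphocyte genes 3 were lower. Among all genes tested, 38.4% were higher and 32.8% lower in this comparison. The Leydig counts and the count of lower macrophage genes were not far from those shares. The part of these in the proteasome differences was not tested.

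In heterozygous testis at day 25 PTU called 5 members higher and 1 lower, where 18.7% of all genes were called, 11.5% higher and 7.2% lower (median member difference 0.16, all genes 0.06). Psma7 read 10.76, 10.74 and 10.65 in exposed heterozygous testis, against 10.57, 10.03 and 9.92 in unexposed heterozygous testis (0.54 ± 0.14, adjusted p = 0.0151). The groups did not overlap. Psma2 (0.29 ± 0.09), Psmb2 (0.38 ± 0.11), Psmb3 (0.34 ± 0.11) and Psmd1 (0.38 ± 0.12), a scaffold of the 19S base, were also higher. Psmf1 read 10.91, 10.82 and 10.94 in exposed heterozygous testis, against 11.31, 12.07 and 11.79 in unexposed heterozygous testis (-0.83 ± 0.16, adjusted p = 0.00447), and it was the only 1 of the 6 called under every omission of an array. Between 1 and 13 members were called: 13 without the first unexposed array, 1 without the second or the third unexposed or the second exposed array, and 2 without the first or the third exposed array. All 12 spermatid genes were lower in this comparison too (median -1.78).

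PTU in wild type testis at day 25 called 0 of 48 members with limma, and 0% of all genes. An unadjusted p under 0.05 was reached by 2 members and by 978 of all 16305 genes. The member differences ran from -0.18 to 0.24, with a median of 0.04 (all genes 0.00). For Psma7 the difference was 0.12 ± 0.14, and for Psmf1 it was -0.16 ± 0.16. The PTU difference in homozygous testis was set against that in wild type testis directly: 23 members had the higher difference in homozygous testis and 4 the lower, where 59.4% of all genes were called, 33.1% higher and 26.3% lower. The 23 included Psme1 (1.46 ± 0.22), Psmb10 (1.17 ± 0.25) and 11 core genes, among them Psma7 (1.04 ± 0.21), Psmb2 (0.98 ± 0.17) and Psmb3 (0.90 ± 0.16), and the 4 lower were Psmf1 (-1.25 ± 0.23), Psme4 (-0.89 ± 0.17), Psmc3ip (-0.62 ± 0.18) and Psmc3 (-0.48 ± 0.13). The same test between heterozygous and wild type testis called 0 members (all genes 0%), with 4 at an unadjusted p under 0.05 (2982 of all genes). Without the first unexposed heterozygous array it called 2, with the share of all genes in that fit not given here. Averaged over the genotypes, 28 members were higher and 6 lower, where 63.9% of all genes were called, 36.3% higher and 27.6% lower.

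Without PTU, both Akt1 mutant groups read lower than wild type for part of the core at day 25. Unexposed heterozygous against unexposed wild type testis called 2 members higher and 17 lower, where 22.6% of all genes were called, 8.32% higher and 14.3% lower (median member difference -0.22, all genes -0.03). Of the core genes 9 of 14 were lower: Psma7 read 10.57, 10.03 and 9.92 in unexposed heterozygous testis, against 10.75, 10.55 and 10.80 in unexposed wild type testis (-0.53 ± 0.14, adjusted p = 0.0148). The first heterozygous array lay within the wild type range. Psma1 read 10.97, 10.73 and 10.70 in unexposed heterozygous testis, against 11.32, 11.17 and 11.36 in unexposed wild type testis, without overlap (-0.48 ± 0.10, adjusted p = 0.00489). The 2 higher members were Psmf1 and Psme4. Psmf1 read 11.31, 12.07 and 11.79 in unexposed heterozygous testis, against 11.12, 10.85 and 10.81 in unexposed wild type testis (0.79 ± 0.16, adjusted p = 0.00424), and Psme4 read 12.85, 12.81 and 12.92 in unexposed heterozygous testis, against 12.33, 12.49 and 12.39 in unexposed wild type testis (0.45 ± 0.11, adjusted p = 0.0119). Neither overlapped. Leaving out arrays left 6 to 21 calls: 9 without the second and 10 without the third heterozygous array, 11 without the first and 6 without the third wild type array. Psma1, Psma2, Psmf1 and Psmg2 stayed called each time.

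Unexposed homozygous against unexposed wild type testis at day 25 called 2 members higher and 9 lower, where 12.7% of all genes were called, 5.35% higher and 7.32% lower (median member difference -0.16, all genes -0.03). The higher members were again Psmf1, which read 11.47, 11.49 and 11.56 in unexposed homozygous testis, against 11.12, 10.85 and 10.81 in unexposed wild type testis (0.58 ± 0.16, adjusted p = 0.0277), and Psme4 (0.41 ± 0.11, adjusted p = 0.0317). The lower members included Psme3 (-0.65 ± 0.13), Psmd7 (-0.52 ± 0.12), a lid subunit, Psmg2 (-0.47 ± 0.08), Psmb2 (-0.42 ± 0.11), Psmb7 (-0.39 ± 0.07) and Psma1 (-0.32 ± 0.10). Both genotype comparisons use the same 3 wild type arrays. Psme3 and Psmg2 stayed called under every omission of an array, and the count fell to 5 without the first and 3 without the third homozygous array, and to 4 without the first and 2 without the third wild type array. Spermatid genes were higher for 9 of 12 in heterozygous (median 1.55) and 5 of 12 in homozygous testis (median 1.31), and their part was not tested.

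Exposed homozygous against exposed wild type testis at day 25 called 19 members higher and 8 lower, where 61.1% of all genes were called, 32.7% higher and 28.4% lower (median member difference 0.23, all genes 0.00). Psma7 read 11.77 and 11.72 in exposed homozygous testis, against 10.79, 10.70 and 10.98 in exposed wild type testis (0.92 ± 0.15, adjusted p = 0.000127), with no overlap. Psme1 (1.08 ± 0.16) and Psmb10 (1.01 ± 0.18) were higher, and Psmf1 (-0.67 ± 0.17) and Psmc3 (-0.53 ± 0.10) lower. Without the second exposed homozygous array 17 members were called. Exposed heterozygous against exposed wild type testis called 0 members, where 0.092% of all genes were called, 0.0245% higher and 0.0675% lower. An unadjusted p under 0.05 was reached by 14 of 48 members and by 2208 of all 16305 genes. The 3' minus 5' difference of the beta-actin control probe sets, a measure of RNA integrity and labelling, ran from 1.08 to 1.44 in exposed and 0.95 to 1.31 in unexposed homozygous arrays, against 0.55 to 0.67 in unexposed wild type arrays. With it as a covariate both comparisons of homozygous with wild type testis called 0 members, and PTU in homozygous testis still called 34. In exposed wild type arrays the measure ran from 0.56 to 0.67, so homozygous and wild type did not overlap. Genotype and this measure therefore cannot be told apart, and the 0 calls decide nothing. Exposed and unexposed homozygous arrays overlapped in it. The share of all genes called with the covariate is not given here.

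The mean of the constitutive genes at day 25 followed the same arrays as many other genes. Its closest genes outside the family were Exosc7, a subunit of the RNA exosome, at r = 0.981, Syncrip, an RNA-binding protein, at 0.98, Esco2, a cohesin acetyltransferase, at 0.979, and Srsf3, a splicing factor, and Hdgfl3 at 0.977 each, over 17 arrays that share the 2 exposed homozygous ones. Against that mean Psmf1 stood at -0.9 and Psme4 at -0.916. The gene with the pattern closest to Psma8 at day 25 was Fignl1, a recombination factor, at 0.955.

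**Figure D5:**
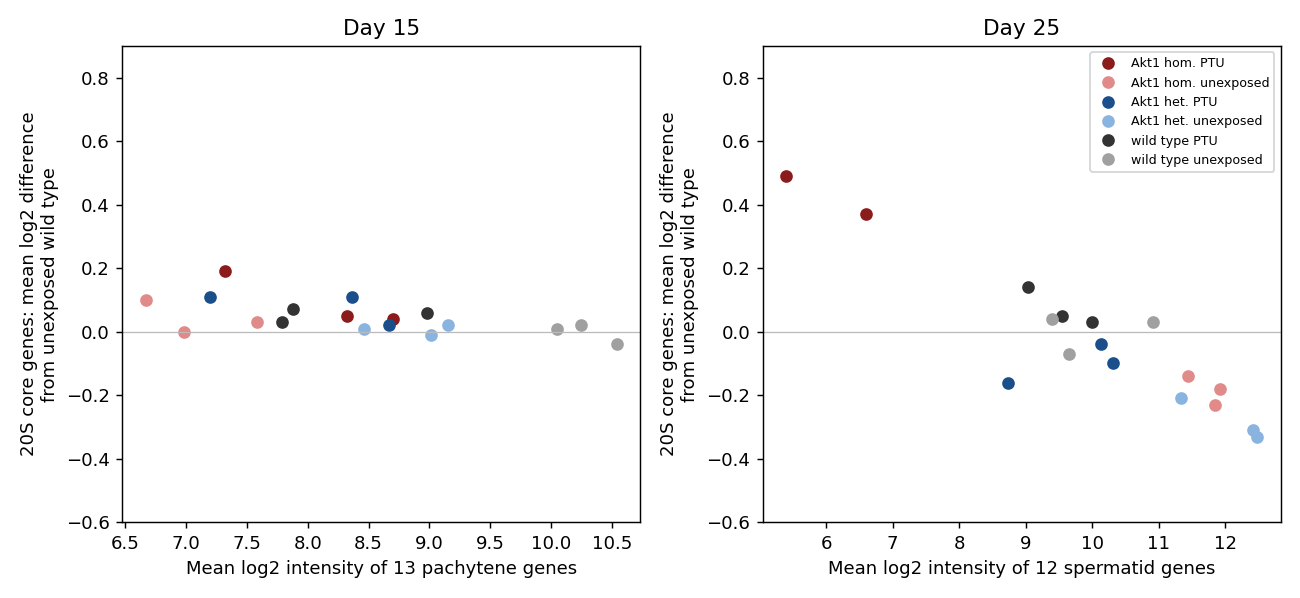
Mean log2 difference of the 14 constitutive core genes from unexposed wild type, per array, against the mean log2 intensity of 13 pachytene genes at day 15 and of 12 spermatid genes at day 25. At day 15 the core stays between -0.04 and 0.19 over pachytene means of 6.67 to 10.54, and at day 25 the 2 exposed homozygous arrays have the highest core means, 0.37 and 0.49, and the lowest spermatid means, 6.60 and 5.40.

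Different probe sets of a gene did not always move alike at day 25, where 27 of the 49 members have several. For PTU in homozygous testis 4 of the 23 members with several tested probe sets had called probe sets of opposite sign. For Psmf1 the brightest probe set gave -1.41 ± 0.17 and the 3 dimmer ones gave 0.36 ± 0.12, 0.01 ± 0.11 and 0.23 ± 0.11, so that the lower value rests on 1 of 4 probe sets. For Psmd7 they gave 0.33 ± 0.13 and -0.61 ± 0.12, and the mean of all its probe sets turned the sign (-0.16, adjusted p = 0.168). For Psmd11, a lid subunit, the called probe sets ran from -2.31 ± 0.27 to 1.57 ± 0.20, with the brightest at 0.36 ± 0.10. For Psmd13, also of the lid, the brightest did not pass (0.16 ± 0.10), and dimmer ones gave 0.22 ± 0.09 and -0.63 ± 0.18. Called probe sets of opposite sign also occurred for Psmd11, Psmd13 and Psmf1 between exposed homozygous and exposed wild type testis. They occurred for Psmd11, Psmd7 and Psmf1 in the averaged PTU difference and for Psmd11 in the homozygous interaction. Psmf1 values in the other comparisons are those of its brightest probe set alone. Which transcripts these probe sets read was not tested.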

How the data were processed

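Testis RNA of 35 mice was measured on 2 Affymetrix array types, and the deposited values are log2 intensities after RMA, per the submitters' processing notes, with a version not given in the sources used here. Array number limits the precision. Samples were grouped by the genotype, exposure and age in the labels, and each day was fitted alone. Probe sets with 1 symbol were kept, the brightest stood for its gene, and a gene was tested where at least 2 arrays exceeded the 25th percentile of that day's values, with limma 3.58.1 in R 4.3.3, on the means of the 6 groups, with Benjamini-Hochberg adjustment over all tested genes at 0.05. The members and lists were chosen with earlier results of these data known. Named were the immune and germ cell forms, Psmc3ip, up to 4 genes per class and day with the smallest p in the F test, and members whose probe sets disagreed. Other members, such as Psmb5, Psmb6 and day 15 Psmd6, were named after their values were seen. The script was tested on simulated data, with changes added to the exposed wild type arrays. At day 15 it recovered 12% of changes of 0.3 log2 units, 46% of those of 0.5 and 98% of those of 1. At day 25 it recovered 6%, 40% and 92%. Small differences can therefore be missed, and a missing call does not show equal levels.

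Same-numbered samples deviated together, with every correlation over 0.1, in 4 pairs of groups: at day 15 exposed and unexposed heterozygous (0.391 to 0.444), exposed homozygous and wild type (0.141 to 0.557), and unexposed heterozygous and wild type (0.181 to 0.374), and at day 25 exposed and unexposed wild type (0.233 to 0.396). The numbers come from the sample number label. Alternatives were the filter, the probe set rule, quantile normalization, array weights, a fit of the compared groups alone, sample number or array division as a block, a beta-actin covariate, and leaving out arrays.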

Additional observations from a re-analysis of the deposited data

Results flagged for a closer look

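The PTU difference (exposed minus unexposed) was set against itself in homozygous and wild type testis, and it differed between the genotypes for 3 of 50 members at day 15, where 16.4% of all genes were called, and for 27 of 48 at day 25, where 59.4% were. Neither count lies above the share of all genes. Each value below is the PTU difference in homozygous minus that in wild type testis on the log2 scale. At day 15 it was 2.39 for Psma8, 1.63 for Psmc3ip and -0.68 for Psmd10.

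At day 25, in the alpha ring, it was 0.81 for Psma1, 0.84 for Psma2 and 0.46 for Psma3. For Psma4, Psma5 and Psma7 it was 0.34, 0.73 and 1.04. In the beta ring it was 0.58 for Psmb1, 0.98 for Psmb2, 0.90 for Psmb3, 0.38 for Psmb4 and 0.26 for Psmb7. In the 19S particle it was 0.60 for Psmc1, -0.48 for Psmc3, 0.71 for Psmc6 and 0.62 for Psmd14, and for the base chaperone Psmd5 it was 1.05. Psmd1 had 0.54, and Psmd11, whose probe sets disagreed, had 0.40. It was 0.59 for Psmg1, 0.47 for Psmg3 and 0.43 for Psmg4 among the core chaperones. It was 1.46 for the activator subunit Psme1 and -1.25 for the inhibitor Psmf1. Of the special forms, Psmb10 had 1.17, Psmb9 had 0.81, Psme4 had -0.89, and Psmc3ip had -0.62. All these day 25 values rest on 2 exposed homozygous arrays.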

How the results depend on the processing

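Counts of members called were recomputed under each alternative, and for settings other than leaving out an array only those that moved by over 1.5 times are given. Except under quantile normalization, the number of all genes called at each setting is not given. A moved count therefore cannot be read as particular to the members. With array weights, day 15 gave 17 for PTU in wild type, 2 for PTU in heterozygous, 2 for PTU in homozygous, 6 for PTU averaged, 2 for exposed homozygous against wild type, 12 for unexposed heterozygous against wild type and 10 for the homozygous interaction; day 25 gave 12 for PTU in heterozygous, 19 for unexposed homozygous and 12 for exposed heterozygous against wild type, and 3 for the heterozygous interaction. With only the groups compared in the fit, the counts were 12 for PTU in wild type and 3 for unexposed heterozygous against wild type at day 15, and 3 for PTU in heterozygous, 21 for PTU in homozygous and 7 for unexposed homozygous against wild type at day 25. Quantile normalization at day 15 gave 1 for PTU in homozygous, 5 for PTU averaged and 5 for the homozygous interaction. Of all 16710 genes it called, in the same order, 743, 2274 and 2709, against 828, 2001 and 2734 in the main fit. With no filter PTU in wild type at day 15 called 2, and a filter at the 50th percentile gave 4 for PTU averaged at day 15 and 1 for exposed heterozygous against wild type at day 25. With the array division as a block, day 15 gave 9 for PTU in wild type, 5 for PTU averaged and 5 for the homozygous interaction. Without the Spink8 arrays the counts at day 15 were 0 for PTU in wild type, 0 for PTU averaged, 4 for unexposed homozygous against wild type and 0 for the homozygous interaction. With the beta-actin covariate day 25 gave 0 for both comparisons of homozygous with wild type and 3 for exposed heterozygous against wild type. That covariate did not overlap between homozygous and wild type arrays, so those 0 counts decide nothing. With sample number as a replicate block where the pairing held, exposed homozygous against wild type at day 15 called 1 and unexposed heterozygous against wild type called 4; it changed no other call count among the 4 paired comparisons. Elsewhere the samples shared only a number, and the block gave 2 for PTU averaged and 5 for the homozygous interaction at day 15, and 3 for PTU in heterozygous and 7 for unexposed homozygous against wild type at day 25. Leaving out 1 array at a time, whether or not the count moved that far, gave, at day 15, 0 to 2 for PTU in wild type, 0 to 1 in heterozygous, 0 to 2 in homozygous, 0 to 5 averaged, 3 to 10 for unexposed and 0 to 9 for exposed homozygous against wild type, 0 to 4 for unexposed heterozygous against wild type and 2 to 7 for the homozygous interaction. At day 25 it gave 1 to 13 for PTU in heterozygous, 27 to 35 in homozygous, 28 to 36 averaged, 2 to 9 for unexposed and 17 to 33 for exposed homozygous against wild type, 6 to 21 for unexposed heterozygous against wild type, 21 to 30 for the homozygous and 0 to 2 for the heterozygous interaction. Of 990 values of named members over 88 results, 811 kept direction and call, 165 lost the call, 13 gained it and 1 changed sign, Psmd7 for PTU in homozygous testis at day 25 with the mean of all probe sets (-0.16). The causes were not tested.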
